A study of Mus musculus with 1078 samples.

Results

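The malignant cells described here are those that the authors labelled Malignant on the plates sorted as CD45-negative, that is, without the surface protein carried by blood-derived and other immune cells. The members were chosen by that deposited label and the name of the sort alone, which gave 148 of the 1078 cells of the series and 148 of the 265 malignant cells on all of its 16 plates. GL261 is a mouse glioma line that grows as a tumor after implantation in the brain of C57Bl/6 mice with an intact immune system, and the mice of the study were of both sexes and 6 to 8 wk old at the start. The 4 plates held 1 treatment each. Control mice received phosphate-buffered saline (PBS) and IgG, and 49 malignant cells came from their plate. Mice given losartan, an angiotensin receptor blocker, at 60 mg/kg daily gave 47. Mice given anti-PD1, an antibody against a checkpoint receptor of T cells, in 3 doses of 200 μg every 3 d gave 8, and mice given losartan+anti-PD1 on the same doses gave 44. All carried the same tumor line and no group carried an engineered allele. No animal was named for any cell, so that each treatment was 1 sample and treatment and plate cannot be told apart. No test was therefore possible between treatments, and SDs and intervals describe the spread over cells and the counting of cells only.

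Glioma cells are known to move among overlapping transcriptional states. Some resemble oligodendrocyte precursor cells (OPCs), which divide and carry the transcription factors Olig1, Olig2 and Sox10, and others resemble mesenchymal cells with annexins, vimentin and Cd44. Laid over these are the cell cycle, the response to low oxygen, which is driven by hypoxia-inducible factors and raises glucose uptake and glycolysis, and the response to interferon, which raises antiviral GTPases and antigen presentation.

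The levels are RSEM expected counts, scaled here so that each cell summed to 100000 (TP100K). They were not divided by transcript length, so that levels were compared between cells and plates but not between genes. The 148 cells had between 3598 and 1254630 expected counts, with a median of 444946. The median number of genes detected was 7095 on the control plate, 7099 with losartan and 7129 with losartan+anti-PD1 but 3800 in the 8 cells of the anti-PD1 plate. For the plate labelled losartan, the deposited treatment label said Los while the deposited experiment name said LosPD1 for all 49 of its cells. The treatment label is followed below, and which of the names is right was not tested.

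On the control, losartan and losartan+anti-PD1 plates the label was borne out by its 6 markers, Moxd1, Syt4, Gpnmb, H19, Ptprz1 and Plagl1. The label itself came from the expression of these cells, so that the markers check it and are no separate result. Moxd1, a monooxygenase-like gene, was above 0 in 47 of 49 control cells, 45 of 47 losartan cells and 43 of 44 losartan+anti-PD1 cells. Its level ran from 0 through a median of 142 to 408 TP100K in control, from 0 through 130 to 382 with losartan and from 0 through 146 to 652 with losartan+anti-PD1. The medians were alike and the ranges overlapped, with the highest cell on the losartan+anti-PD1 plate. In the 278 nonmalignant cells of both sorts, CD45-positive and CD45-negative, its mean was 0.337 TP100K. Syt4, a vesicle protein, averaged 142 ± 109, 181 ± 146 and 140 ± 103 TP100K (SD over 49, 47 and 44 cells), and Gpnmb, a membrane glycoprotein, 196 ± 152, 243 ± 202 and 333 ± 392 TP100K. At least 3 of the 6 markers were detected in 134 of these 140 cells, and 5 or 6 of them in 109.

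The 8 cells labelled malignant on the anti-PD1 plate went against their label. Moxd1, H19 and Plagl1 were at 0 in all 8 (which allows a share of up to 37.5% of cells, counting error only), 7 of the 8 held at most 1 marker, and 1 held 3. A cell with 13 of the 14 astrocyte markers had Apoe, an astrocyte lipid carrier, at 639 TP100K. Another had Ttr, the transthyretin of the choroid plexus, at 17247, and another the myelin gene Mbp at 917. Acta2, the smooth muscle actin, stood at 1892 and 795 TP100K in 2 cells that also held Tagln and Myh11, and Snap25, a neuronal synaptic gene, at 149 in 1 more. The plate also held 29 oligodendrocytes, 5 endothelial cells and 1 T cell by label. These 8 cells are therefore given as values, and called by their label and plate. Against control, 1699 of 10536 genes (16.1%) were at least 2-fold higher in them and 3223 (30.6%) at least 2-fold lower, and these counts compare cells without the markers with cells that have them.

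Genes of the Y chromosome, which the rule did not use, divided the cells along the same line. At least 1 of the 4 Y-linked genes Ddx3y, Eif2s3y, Kdm5d and Uty was above 0 in 4 of the 140 cells on the 3 plates (2.86%, exact 95% binomial interval 0.784 to 7.15). In the 8 cells of the anti-PD1 plate the count was 5 (62.5%, 24.5 to 91.5). Among the 31 oligodendrocytes of the CD45-negative plates it was 26 (83.9%), and among all 240 cells of the CD45-positive plates 179 (74.6%). Of the 4 Y-positive cells on the 3 plates, 1 control and 1 losartan cell held none of the 6 markers but 6 and 5 mural cell markers, with Rgs5, a pericyte gene, at 354 and 477 TP100K. Outside these 4, a losartan+anti-PD1 cell with no Y-linked gene detected held no marker and only 1736 genes.

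**Figure D1:**
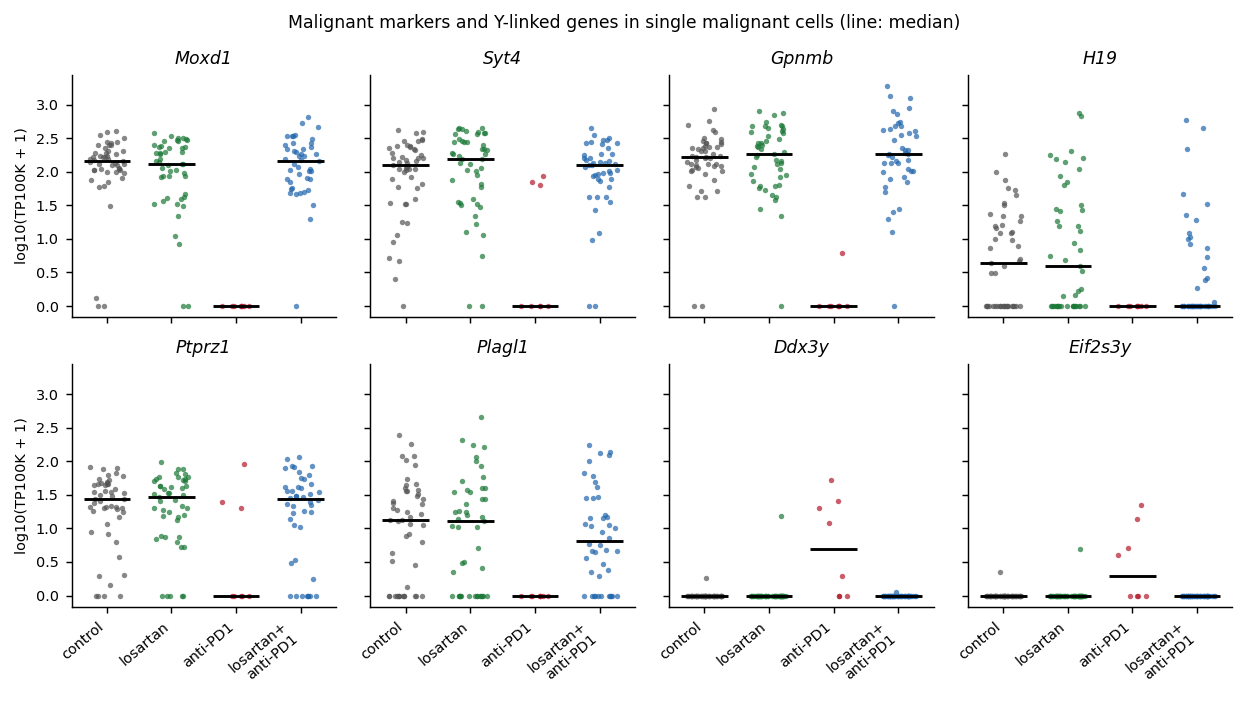
Levels of the 6 malignant markers and of the Y-linked genes Ddx3y and Eif2s3y in each malignant cell of the 4 CD45-negative plates, on a log10(TP100K + 1) axis, with a line at the median. Moxd1, Syt4 and Gpnmb are high on the control, losartan and losartan+anti-PD1 plates and at or near 0 in most of the 8 cells of the anti-PD1 plate, where the Y-linked genes are present.

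On the 3 plates a cell held a median of at most 1 gene of each endothelial, microglial, T and NK cell and neuronal list. Oligodendrocyte and astrocyte genes were present in most cells. Of 8 oligodendrocyte genes at least 3 were detected in 91 of the 140 cells, with a summed level from 0 through a median of 41.9 to 1138 TP100K. Of 14 astrocyte genes at least 3 were detected in 123 cells, with a sum from 0 through 44.9 to 1269 TP100K. Mural genes reached a sum of 1486 TP100K but had a median of 0, and 2 cells held 3 or more of them. The part of these genes in the results below was not tested. The microglial genes C1qb, Trem2 and Aif1, the endothelial genes Cldn5 and Kdr, the T and NK cell genes Cd3e, Cd2, Cd4 and Nkg7 and the neuronal genes Snap25, Slc17a7 and Nefl were at 0 in all 140 cells (up to 2.14% of cells allowed). Of 13 microglial and myeloid genes a cell held a median of 1, with a summed level from 0 through 10.01 to 271 TP100K. Tmem119, usually a microglial gene, had a mean of 15 TP100K in control, 34.7 with losartan and 9.23 with losartan+anti-PD1.

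The authors had used copy number inferred from expression to label malignant cells, so that position along the chromosomes describes the label. Against oligodendrocytes of the same sort, the median log2 ratio of the 259 genes of chromosome 15 was 0.72, 0.89 and 0.59 on the control, losartan and losartan+anti-PD1 plates, beside 0.14, 0.27 and 0.12 over all 6418 genes with a position. Of these 31 oligodendrocytes 29 lay on the anti-PD1 plate, so that the reference came mostly from another plate and treatment. Chromosome 15 was the highest of the chromosomes on all 3 plates. Chromosome 16 was the lowest, at -0.14, -0.16 and -0.24 over 207 genes.

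Within each plate the malignant cells were far from uniform. H19, an imprinted RNA that is normally fetal, varied the most of 8646 genes detected in at least 25% of the cells of each plate, with an SD of 1.83 on the ln(TP100K + 1) scale within plates, beside a median of 0.949 over all these genes. It was above 0 in 28 of 49 control cells, 29 of 47 losartan cells and 18 of 44 losartan+anti-PD1 cells. It ran from 0 through a median of 3.32 to 184 TP100K in control, from 0 through 2.97 to 739 with losartan, and from 0 through 0 to 594 with losartan+anti-PD1. A small number of cells thus carried most of it, and a single losartan+anti-PD1 cell held 41.7% of the signal of its plate. The next were Fos, the immediate early transcription factor, at an SD of 1.82 and Malat1, a nuclear long RNA, at 1.81, followed by the interferon-induced GTPase Iigp1, the lipid-signalling enzyme Enpp2 and Plagl1, an imprinted zinc finger gene.

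Each cell was scored for 17 gene lists by its mean ln(TP100K + 1) over a list minus that of the 10 genes nearest in mean expression to each member. A list whose members move together from cell to cell has a median correlation between its members above that of all genes, which was 0.09, 0.08 and 0.10 on the control, losartan and losartan+anti-PD1 plates. The MHC class II list had the highest on each plate, at 0.71, 0.61 and 0.63 over 6 genes. The G2/M list stood at 0.45, 0.43 and 0.33 over 33 genes, the G1/S list at 0.42, 0.36 and 0.35 over 30, and the interferon list at 0.37, 0.41 and 0.35 over 37. The OPC list was at 0.25, 0.26 and 0.21 over 13 genes. The hypoxia list was at 0.08 in control, the level of all genes, and at 0.18 and 0.30 on the plates with losartan. Cells of a plate share its library preparation, and each r below is a description over cells.

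The promoters of the listed genes were read from RefSeq (GRCm38.p6) over the 150 bases before the start site. They show the letters behind the best known response elements for the MHC class II, interferon, G2/M and hypoxia lists. In each line the capitals mark the matches searched for on both strands. The genes shown held a match and were among the 3 genes with a window that followed the rest of their list most closely. Closeness was the lowest r over all 3 plates, but for the hypoxia list over both plates with losartan only. On those plates Bnip3 had r of 0.54 and 0.60 with the rest of its list, beside 0.30 in control. Iigp1, H2-Ab1 and Cd74 have no window.
H2-Aa: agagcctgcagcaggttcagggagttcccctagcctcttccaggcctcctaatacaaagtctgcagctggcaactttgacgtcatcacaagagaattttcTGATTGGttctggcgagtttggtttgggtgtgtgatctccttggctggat
H2-Eb1: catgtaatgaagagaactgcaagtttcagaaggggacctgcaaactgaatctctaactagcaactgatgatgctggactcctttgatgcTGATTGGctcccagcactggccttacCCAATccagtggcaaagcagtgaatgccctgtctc
Ifit1: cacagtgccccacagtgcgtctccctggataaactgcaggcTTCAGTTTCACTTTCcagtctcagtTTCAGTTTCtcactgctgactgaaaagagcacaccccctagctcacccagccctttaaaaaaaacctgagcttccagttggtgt
Ifit3: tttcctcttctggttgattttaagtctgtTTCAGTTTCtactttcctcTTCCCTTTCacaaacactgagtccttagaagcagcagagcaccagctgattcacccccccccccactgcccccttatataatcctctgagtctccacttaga
Hmmr: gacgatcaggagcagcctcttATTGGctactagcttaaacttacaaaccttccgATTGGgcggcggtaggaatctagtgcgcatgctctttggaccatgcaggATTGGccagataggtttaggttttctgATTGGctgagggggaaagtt
Cenpe: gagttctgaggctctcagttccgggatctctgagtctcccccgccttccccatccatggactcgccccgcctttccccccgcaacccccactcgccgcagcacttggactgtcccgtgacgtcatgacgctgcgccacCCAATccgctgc
Bnip3: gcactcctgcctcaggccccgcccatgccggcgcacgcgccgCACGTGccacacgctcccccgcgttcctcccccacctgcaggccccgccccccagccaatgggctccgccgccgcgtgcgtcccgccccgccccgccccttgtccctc

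H2-Aa lies at chr17:34287824-34287973 on the minus strand and H2-Eb1 at chr17:34305717-34305866 on the plus strand, both in the MHC region, Ifit1 at chr19:34640739-34640888 and Ifit3 at chr19:34583379-34583528 on the plus strand, Hmmr at chr11:40733438-40733587 on the minus strand, Cenpe at chr3:135212413-135212562 on the plus strand and Bnip3 at chr7:138909507-138909656 on the minus strand. The interferon-type element GAAANNGAA occurred in 15 of the 32 interferon genes with a window (46.9%), beside 4.61% of all 27025 genes with a window. CCAAT occurred in 35 of 47 G2/M genes (74.5%) beside 27.7%, and TTTGAA, the core of the cell cycle homology region, in 16 of 47 (34%) beside 10.5%. ACGTG, the core of the hypoxia response element, occurred in 11 of 22 hypoxia genes (50%) beside 12.6%. TGATTGG, a Y-box form that contains CCAAT read on the other strand, occurred in 3 of the 4 MHC class II genes with a window beside 6.70%. The 150-base windows of Birc5, Ak4, Vegfa, Ifit2 and H2-DMa held no match to the letters searched for their lists. A match is a description of the letters only.

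Cycling cells made up a large share of the 3 plates, with a higher share in control than on either plate with losartan. A cell counted as cycling when its G1/S or G2/M score was above 0. This held for 26 of 49 control cells (53.1%, exact interval 38.3 to 67.5), 17 of 47 losartan cells (36.2%, 22.7 to 51.5) and 15 of 44 losartan+anti-PD1 cells (34.1%, 20.5 to 49.9), and for 1 of 8 cells of the anti-PD1 plate. The control cell and the losartan+anti-PD1 cell with none of the malignant markers were among those counted. The intervals overlapped, and 6, 4 and 6 of the cells of the 3 plates lay within 0.1 of the threshold. Mki67, the proliferation antigen, and Top2a, the topoisomerase of dividing cells, were both above 0 in 15 control, 8 losartan and 5 losartan+anti-PD1 cells. Over the 3 plates both genes were detected in 26 of the 58 cells called cycling (44.8%) and in 2 of the other 82 (2.44%).

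The phases were unevenly filled. In control 10 cells were above 0 for G1/S only, 6 for G2/M only and 10 for both. With losartan the counts were 4, 0 and 13, and with losartan+anti-PD1 4, 4 and 7. No losartan cell was thus above 0 for G2/M alone, where 0 of 47 leaves an exact upper limit of 7.55%.

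Mki67 ran from 0 through a median of 0 to 41.3 TP100K in control, from 0 through 0 to 81.2 with losartan and from 0 through 0 to 21.6 with losartan+anti-PD1. Its mean was 5.76 ± 10.6, 4.88 ± 13.4 and 1.91 ± 5.43 TP100K (SD over cells). Top2a averaged 14.2 ± 39.8, 13.1 ± 34.9 and 13.1 ± 34.9 TP100K, with the highest cell at 194, 199 and 183, and was detected in 27, 20 and 16 cells. Its means and highest levels were thus alike while the number of cells with it was not. Cdk1, the kinase of mitotic entry, averaged 6.80, 3.19 and 4.84 TP100K, and Pcna, the replication clamp, 15.6, 14 and 15.1.

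The G1/S and G2/M scores rose and fell together across cells, with r of 0.65, 0.67 and 0.63 (49, 47 and 44 cells), and of 0.64, 0.68 and 0.63 after the part linear in total count and genes detected was removed. Of the genes outside each list, 47 of 8616 (0.545%) had r of at least 0.4 with the G1/S score on all 3 plates. They were led by Top2a at 0.71, 0.72 and 0.70. For G2/M the count was 41 of 8613 (0.476%), led by Ccna2, the cyclin of S and G2 phase.

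**Figure D2:**
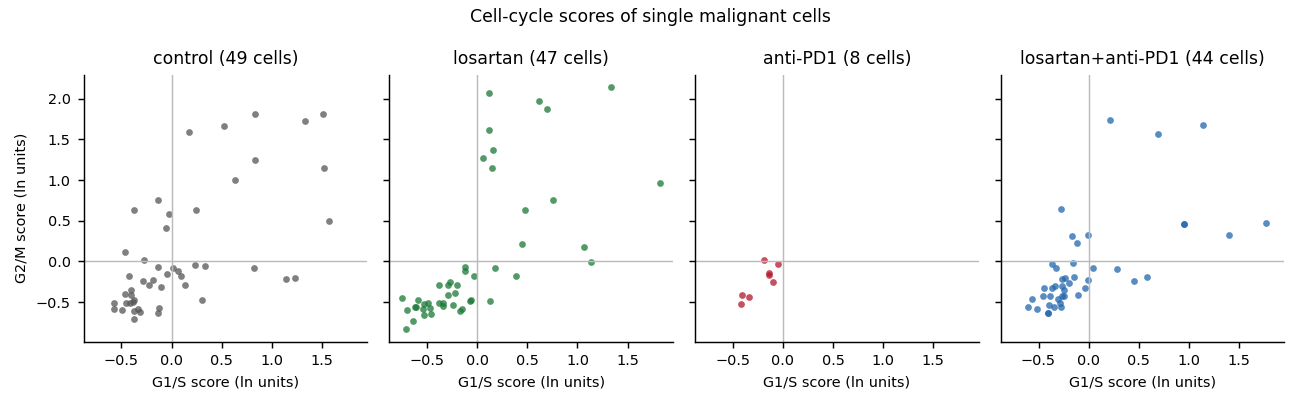
G1/S score against G2/M score of each malignant cell, 1 panel per plate, both on the ln(TP100K + 1) scale relative to genes of like expression, with lines at 0. Control, losartan and losartan+anti-PD1 cells extend along the diagonal (r of 0.65, 0.67 and 0.63), and 26, 17 and 15 of them lie above 0 on at least 1 axis, as does 1 of the 8 cells of the anti-PD1 plate.

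Both comparisons with control share the same 49 control cells. Log2 ratios are of mean TP100K + 1, for genes found in no fewer than 25% of cells on 1 plate of the pair. With losartan 119 of 9857 genes (1.21%) were at least 2-fold higher and 28 (0.284%) at least 2-fold lower, and the median over all genes was 0.10. With losartan+anti-PD1 128 of 9852 genes (1.3%) were at least 2-fold higher and 106 (1.08%) at least 2-fold lower, with a median of -0.02. When the 75th percentile of a cell replaced its total in the scaling, the losartan median moved to -0.01, so that losartan ratios of about 0.1 depend on the scaling, and the counts became 50 higher and 20 lower with losartan and 81 and 77 with losartan+anti-PD1.

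Among 47 G2/M genes none was at least 2-fold higher and 6 were at least 2-fold lower with losartan+anti-PD1, namely Mki67, Tacc3, Ckap2, Cdca3, Cdc25c and Ect2, and the median over the list was -0.42. With 75th-percentile scaling 4 were lower. With losartan the median over 46 genes was 0.27, or 0.03 with 75th-percentile scaling, and 1 gene, Ckap2l, was past 2-fold higher. Of 37 G1/S genes, 2 were past 2-fold lower with losartan+anti-PD1, the replicative helicase genes Mcm5 and Mcm4, and none with losartan, with medians of -0.11 and -0.12, and the 2 became 1 with 75th-percentile scaling and 3 without the highest cell of each plate.

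Hypoxia genes were higher in a subset of cells on both plates with losartan. The score had an SD over cells of 0.168 in control, 0.395 with losartan and 0.406 with losartan+anti-PD1, and its mean was higher than control by 0.180 and 0.185. The highest control cell stood at 0.208. Above it lay 11 of 47 losartan cells (23.4%, exact interval 12.3 to 38) and 9 of 44 losartan+anti-PD1 cells (20.5%, 9.80 to 35.3), all of which held at least 3 of the 6 malignant markers. They had medians of 6856 and 6905 genes detected, beside 7154 and 7132 in the rest. Of the 11 losartan cells 2 were cycling, beside 15 of the other 36, and of the 9 losartan+anti-PD1 cells 2 were cycling, beside 13 of the other 35.

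Slc2a1, the glucose transporter Glut1, ran from 0 through a median of 6.50 to 51.9 TP100K in control, from 0 through 22.2 to 456 with losartan and from 0 through 8.76 to 1171 with losartan+anti-PD1. Its mean was 8.24 ± 9.98, 45.3 ± 76.5 and 57.2 ± 179 TP100K, a log2 ratio to control of 2.33 with losartan and 2.66 with losartan+anti-PD1. The groups overlapped, and without the highest cell of each plate the ratios were 2.17 and 1.96. With losartan+anti-PD1 a single cell held 46.5% of the signal. Bnip3, a mitophagy gene, averaged 1.89 ± 3.17, 10.6 ± 28 and 9.65 ± 20.2 TP100K and was detected in 18, 23 and 23 cells. Ero1l, an oxidase of the endoplasmic reticulum, averaged 17.9 ± 18.2, 29.5 ± 43.5 and 79.6 ± 240 TP100K, with log2 ratios of 0.69 and 2.09. Its 2 highest losartan+anti-PD1 cells stood at 1207.8 and 1077.9 TP100K and the next at 225.3. The Ero1l ratio of 2.09 thus rests mainly on 2 of 44 cells, and leaving out only the highest cell would not remove both. Vegfa, the vascular growth factor, was low, above 0 in 20 of 49, 20 of 47 and 13 of 44 cells, and averaged 0.489, 1.52 and 0.517 TP100K. Of 19 hypoxia genes measured with losartan, 3 were at least 2-fold higher (Slc2a1, Bnip3 and Mxi1, a Max-binding repressor), none lower, all 19 had ratios above 0, beside 6128 of 9857 over all genes, and the median was 0.54. The 3 became 2 without the highest cell of each plate, and also with 75th-percentile scaling. With losartan+anti-PD1 3 of 18 were past 2-fold higher (Slc2a1, Bnip3 and Ero1l), 14 had ratios above 0, beside 4676 of 9852 over all genes, and the median was 0.40.

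Glycolysis genes moved with the hypoxia score on the plates with losartan. The correlation of both scores was 0.13 over the control cells, 0.59 with losartan and 0.63 with losartan+anti-PD1, and 0.09, 0.64 and 0.66 after the part linear in total count and genes detected was removed. The mean glycolysis score was 0.449 in the 11 losartan cells above the control maximum for hypoxia, beside -0.153 in the rest, and 0.866 beside -0.034 with losartan+anti-PD1. No gene outside the hypoxia list reached r of 0.4 with its score on all 3 plates (0 of 8631, 0%), and 7 did on both plates with losartan. They included Slc16a3, the lactate exporter, at 0.50 and 0.67 beside -0.15 in control, Pfkl, a phosphofructokinase, at 0.50 and 0.49 beside -0.01, and Gapdh, the glycolytic dehydrogenase, at 0.46 and 0.52 beside 0.13. Slc16a3 averaged 1.47 ± 2.92 TP100K in control, 5.77 ± 13.8 with losartan and 6.89 ± 13.2 with losartan+anti-PD1, a log2 ratio of 1.45 and 1.67. It was the 1 glycolysis gene of 15 past 2-fold with losartan, where the median was 0.44, and 1 of 3 with losartan+anti-PD1, with Pfkl and Pfkp, where it was 0.54. The control plate thus had the narrower spread and the lower correlation, and drug and plate cannot be told apart here.

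**Figure D3:**
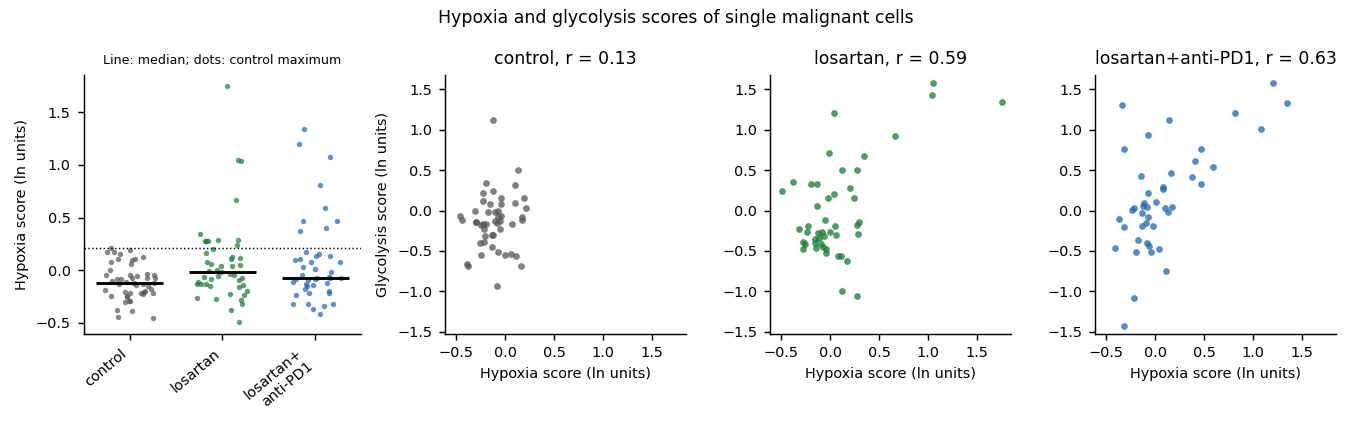
Hypoxia score of each malignant cell by plate, with a dotted line at the control maximum of 0.208, and hypoxia score against glycolysis score on the control, losartan and losartan+anti-PD1 plates. Above the dotted line lie 11 losartan and 9 losartan+anti-PD1 cells, and r is 0.13, 0.59 and 0.63.

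The cells also spread between OPC-like and mesenchymal programs. Olig1, a transcription factor of the oligodendrocyte lineage, was detected in 46 control, 41 losartan and 39 losartan+anti-PD1 cells. It ran from 0 through a median of 60.4 to 302 TP100K in control, from 0 through 52.5 to 256 with losartan and from 0 through 26.2 to 199 with losartan+anti-PD1, where its mean was 40.4 ± 45.9 TP100K beside 79.2 ± 65.9 in control, a log2 ratio of -0.95. The ranges overlapped throughout. Olig2, its partner, averaged 19, 21.1 and 11.9 TP100K and Sox10, which sets oligodendroglial fate, 15.8, 19.4 and 11.8. Pdgfra, the growth factor receptor of OPCs, was detected in only 11, 7 and 13 cells.

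Bcan, a brain proteoglycan, averaged 15.1 ± 22.6 TP100K in control, 9.64 ± 14.8 with losartan and 4.05 ± 7.45 with losartan+anti-PD1, a log2 ratio of -0.60 and -1.68, and was detected in 34, 30 and 22 cells. Of 15 OPC genes measured with losartan+anti-PD1, none was at least 2-fold higher, 3 were at least 2-fold lower (Bcan, Sox8 and Omg, a myelin glycoprotein), beside 1.08% of all genes, 11 had ratios below 0, beside 5176 of 9852, and the median was -0.63. With losartan, Omg was past 2-fold higher at 1.58 and Lhfpl3 past 2-fold lower at -1.09, and the median over 14 genes was 0.07, or -0.07 with 75th-percentile scaling. Omg thus lay on opposite sides of control on the plates with losartan alone and with the combination. Among genes of neural progenitors, Dll3, a Notch ligand, averaged 6.20 ± 13.3 TP100K in control, 28.1 ± 66.5 with losartan and 6.47 ± 16.7 with losartan+anti-PD1. Sox2, a stem cell factor, averaged 3.46, 2.81 and 4.47 TP100K and Nes, the progenitor filament nestin, 7.34, 10.7 and 7.11.

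Of 136 pairs of lists, 3 had r of at least 0.3 in size with the same sign on all 3 plates (2.21%). Besides G1/S with G2/M they were OPC with mesenchymal and interferon with MHC class I. Cells with a high OPC score had a low mesenchymal score, with r of -0.58 in control, -0.60 with losartan and -0.43 with losartan+anti-PD1, and of -0.56, -0.62 and -0.42 after the part linear in total count and genes detected was removed. With plain means of the lists in place of scores, the mean r over the 3 plates was -0.31 in place of -0.54. The mesenchymal score itself had r of -0.47, -0.30 and -0.22 with genes detected. Bcas1, a gene of newly formed oligodendrocytes, was 1 of 2 genes outside the list with r of at most -0.4 with the mesenchymal score on all 3 plates, at -0.55, -0.41 and -0.43, the other being Rap1gap, a Rap1 regulator, at -0.40, -0.41 and -0.44. After the part linear in total count and genes detected was removed, Bcas1 was at -0.43, -0.36 and -0.40. Rap1gap was then at -0.24, -0.31 and -0.40, so that neither reached -0.4 on all 3 plates. No gene outside the mesenchymal list reached r of 0.4 on all 3 plates (0 of 8632, 0%), though 6 did after the part linear in total count and genes detected was removed, and none did for the neural progenitor list (0 of 8634, 0%). For the OPC list 2 of 8633 did (0.0232%), Mmp15, a membrane-bound metalloproteinase, at 0.53, 0.45 and 0.53, and Sulf2, a heparan sulfate sulfatase, at 0.41, 0.62 and 0.48. Next by their lowest r were Gas5, a noncoding RNA, Pllp, a myelin-associated gene, and Erbb3, a neuregulin receptor.

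Of 18 mesenchymal genes, 2 were past 2-fold higher with losartan+anti-PD1, the annexin Anxa2 and the galectin Lgals3, and 1 past 2-fold lower, Tnc, the matrix protein tenascin C, with a median of 0.17. Anxa2 was at 1.05, or 0.97 without the highest cell of each plate, and Lgals3 at 1.11, or 1.09. None was past 2-fold with losartan, where the median was 0.12, or -0.02 with 75th-percentile scaling. Vim, the intermediate filament vimentin, averaged 192 ± 131, 229 ± 236 and 307 ± 290 TP100K. Cd44, the hyaluronan receptor, averaged 12.1 ± 13, 17 ± 36.9 and 18.6 ± 26.3 TP100K. Tnc was detected in 16 control cells, 10 losartan cells and 5 losartan+anti-PD1 cells, with means of 5.82 ± 16, 5.44 ± 16.5 and 0.915 ± 4.06 TP100K, and its ratio with losartan+anti-PD1 was -1.83, or -2.03 without the highest cell of each plate.

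**Figure D4:**
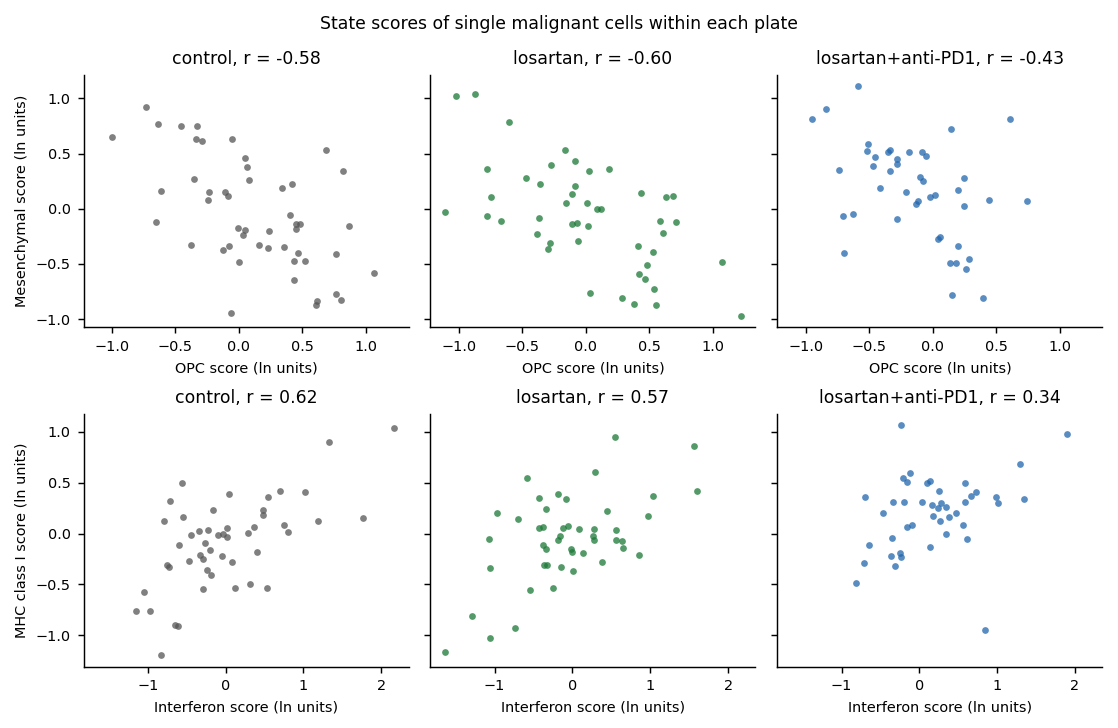
OPC score against mesenchymal score (r of -0.58, -0.60 and -0.43) and interferon score against MHC class I score (r of 0.62, 0.57 and 0.34) of each malignant cell on the control, losartan and losartan+anti-PD1 plates. The first pair slopes down and the second up on each plate.

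Interferon-induced genes varied widely from cell to cell on each plate, and their scores overlapped between plates, with control at a mean of -0.003 ± 0.714, losartan at -0.058 ± 0.686 and losartan+anti-PD1 at 0.183 ± 0.586 (SD over cells). The highest control score, 2.16, belonged to the control cell with no malignant marker and 6 mural cell markers. That cell also had the highest control scores for MHC class I (1.04) and mesenchymal genes (0.921). Irf1, a transcription factor of the interferon response, averaged 40.1 ± 69.5, 37.4 ± 60.8 and 54.9 ± 54.9 TP100K. Iigp1, a GTPase against intracellular pathogens, averaged 46.4 ± 83.9, 34.1 ± 51.4 and 65.8 ± 60.2 TP100K and had medians of 6.29, 10.3 and 56.1. Gbp4, a guanylate-binding protein, averaged 44.4 ± 70.3, 35.5 ± 45.3 and 120 ± 156 TP100K and was the 1 of 38 interferon genes past 2-fold with losartan+anti-PD1, at 1.41. None was past 2-fold with losartan. The list medians were -0.06 and -0.05, so that with losartan+anti-PD1 the mean score and the median ratio differed in sign. Rsad2, an antiviral radical enzyme, shows how few cells can carry such a mean, since 1 control cell held 83% of its signal on that plate.

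Cd274, which encodes the PD1 ligand PD-L1 and is not on the interferon list, followed the interferon score with r of 0.61, 0.64 and 0.56 and was detected in 24 control, 21 losartan and 27 losartan+anti-PD1 cells. It averaged 10.1 ± 31, 4.95 ± 9.54 and 11.5 ± 18.7 TP100K. In all 21 of 8609 genes outside the list (0.244%) had r of at least 0.4 on each plate. Besides Cd274 they included Gvin1, a large GTPase, at 0.74, 0.59 and 0.66, Samd9l, an antiviral factor, at 0.69, 0.55 and 0.56, and Parp10. Many of them belong to families with near-identical copies, among which RSEM divides shared reads, so that the values of Gvin1, Gm12250, Gbp9 and their like are uncertain one by one. The interferon and MHC class I scores had r of 0.62, 0.57 and 0.34, or 0.66, 0.57 and 0.34 after the part linear in total count and genes detected was removed.

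Class I genes were somewhat higher with losartan+anti-PD1 without passing 2-fold. H2-K1, a class I heavy chain, averaged 151 ± 79.5 TP100K in control, 159 ± 99.1 with losartan and 220 ± 135 with losartan+anti-PD1, and B2m, the light chain, 289 ± 161, 262 ± 163 and 318 ± 122. B2m was above 0 in all 140 cells. No class I gene of 19 was past 2-fold on either plate, and the medians were 0.07 with losartan, or -0.10 with 75th-percentile scaling, and 0.37 with losartan+anti-PD1. There 18 of the 19 had ratios above 0, beside 4676 of 9852 over all genes, and the mean score lay 0.295 above control.

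MHC class II genes, whose products present peptides to CD4+ T cells and whose transcription depends on Ciita, were higher with losartan+anti-PD1 in all 7 members measured. All 7 were at least 2-fold higher, beside 1.3% of all genes, with a median log2 ratio of 1.35. Cd74, the invariant chain, was above 0 in 45 of 49 control, 43 of 47 losartan and all 44 losartan+anti-PD1 cells. It ran from 0 through a median of 26.1 to 144 TP100K in control, from 0 through 18.1 to 207 with losartan and from 2.30 through 91.1 to 296 with losartan+anti-PD1. The median of the losartan+anti-PD1 cells thus lay within the control range, and the ranges overlapped.

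H2-Aa, the alpha chain of I-A, averaged 19.1 ± 26.3, 22.4 ± 51.7 and 66.9 ± 57.9 TP100K, a log2 ratio of 1.76 with losartan+anti-PD1. It was detected in 40, 26 and 42 cells. H2-Eb1, the beta chain of I-E, averaged 26.4 ± 31.4, 24.7 ± 40.4 and 74.7 ± 66.9 TP100K, and H2-Ab1, the beta chain of I-A, 27.6 ± 34.2, 21 ± 36.4 and 57.1 ± 52.9. The peptide-exchange genes H2-DMa and H2-DMb1 had log2 ratios of 1.35 and 1.09. Ciita was low, with means of 1.198 ± 2.27, 1.62 ± 3.86 and 3.86 ± 5.83 TP100K and detection in 18, 11 and 18 cells. Its ratio of 1.14 therefore rests on more signal in a similar number of cells.

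With losartan no class II gene was past 2-fold. The list median was 0.14 while the mean score lay 0.290 below control (-0.462 ± 1.10 beside -0.172 ± 0.983), so that they differed in sign, and the list median moved to -0.05 when cells were scaled by their 75th percentile. With losartan+anti-PD1 that scaling left 5 of the 7 past 2-fold, with a median of 1.19.

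The mean class II score of losartan+anti-PD1 cells lay 1.06 above control. It lay 1.25 above without cells that held 3 or more microglial or myeloid markers, 1.08 above with only cells of at least 3 malignant markers and 0.906 above with only cells of at least 4000 genes. C1qb, C1qc, Trem2, Aif1, Ptprc, Tyrobp and Csf1r, 7 of the 13 microglial and myeloid genes, were at 0 in all 44 losartan+anti-PD1 cells. Among 24 microglia and myeloid cells of the losartan+anti-PD1 CD45-positive plate, Trem2 was detected in 1 and C1qb in 3. Aif1 was detected there in 11, Csf1r in 15 and Tyrobp in 23. A level of 0 for Trem2 or C1qb therefore tells little. The summed level of the 13 genes ran from 0 through 11.6 to 105 TP100K there and from 0 through 8.37 to 150 in control. The 5 losartan+anti-PD1 cells above the control maximum had a median of 2352 genes detected, beside 7160 in the other 39. In microglia and myeloid cells of the CD45-positive plates Cd74 averaged 792 TP100K in control (53 cells) and 525 with losartan+anti-PD1 (24 cells), and in oligodendrocytes of the CD45-negative plates 1.67 (31 cells). Of those 31 oligodendrocytes 29 lay on the anti-PD1 plate and only 1 on the losartan+anti-PD1 plate, so that they are no same-plate reference. RNA freed from other cells as a source was not tested.

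The class II score followed the interferon score on no plate, with r of -0.14, -0.07 and -0.02. It was closer to the OPC score, at 0.13, 0.34 and 0.47, and to the class I score, at 0.30, 0.27 and 0.50. Of 8640 genes outside the list 4 had r of at least 0.4 with it on each plate (0.0463%), among them the ribosomal protein genes Rps18, Rplp1 and Rps26. The class II score had r of -0.13, -0.25 and -0.33 with the number of genes detected.

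**Figure D5:**
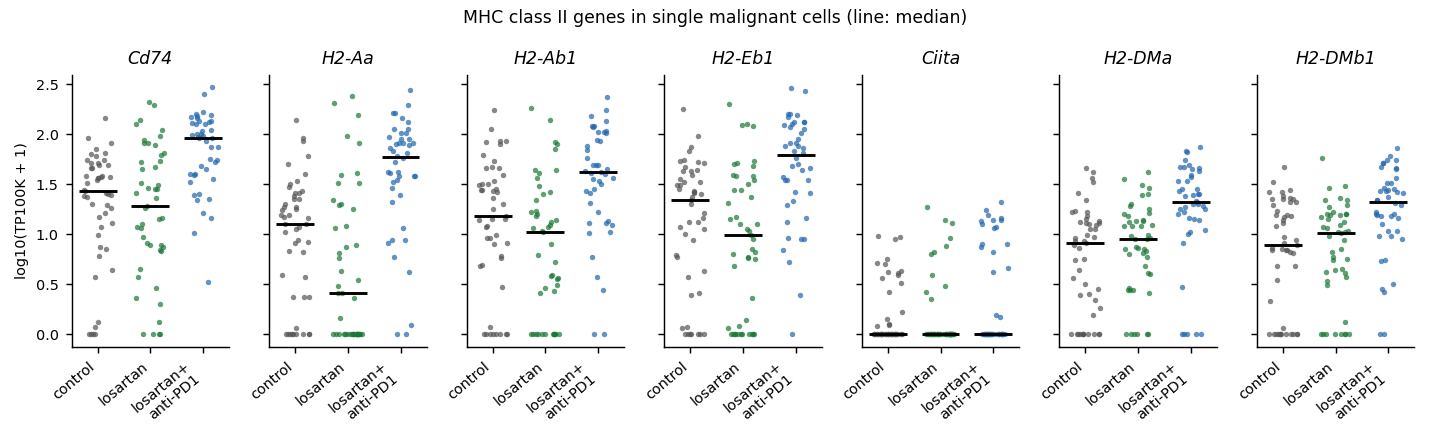
Levels of 7 MHC class II genes in each malignant cell on the control, losartan and losartan+anti-PD1 plates, on a log10(TP100K + 1) axis, with a line at the median. The median of Cd74 is 26.1, 18.1 and 91.1 TP100K, and the clouds of all 7 genes overlap between plates.

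The largest ratios often came from a single cell. Hmox1, heme oxygenase, had the highest ratio with losartan, 4.30, but 1 cell held 94.4% of its signal and the ratio was 0.70 without the highest cell of each plate. Ptrf, a caveola coat gene, had 3.19, or 1.23 without those cells, and Sparcl1 2.47, or 1.21. Grasp, a scaffold protein, had 2.55, or 1.88. Slc2a1, the fifth, kept 2.17 of 2.33. At the other end, Slfn8 had -1.71, or -1.10, Tmem165 -1.55, or -0.63, Tm6sf1 -1.42, or -0.08, Abhd10 -1.36, or -0.37, and Eef2k, the kinase that slows translation elongation, -1.32, or -1.29.

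With losartan+anti-PD1 the highest were Hmox1 at 3.11, or 2.02 without the highest cell of each plate, Enpp2 at 2.68, or 1.77, Slc2a1, Sepp1, a plasma selenoprotein, at 2.38, or 2.34, and Serpinf1 at 2.25, or 1.87. Sepp1 was detected in 9 control and 19 losartan+anti-PD1 cells and Serpinf1 in 21 and 30. Among the lowest were Tnc, Chn2, a Rac regulator, at -1.71, or -1.77, Itga1, a collagen receptor subunit, at -1.71, or -0.88, and Bcan at -1.68, or -1.81. Tnc, Chn2 and Bcan thus stayed past 2-fold without those cells, while Itga1 did not.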

How the data were processed

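Cells of GL261 tumors had been dissociated, sorted and sequenced by full-length Smart-seq2, a plate-based method without molecular identifiers. For the plates of both CD45 sorts the deposited values are expected counts for each gene, which the authors estimated with RSEM. The methods describe TPM, but totals differed from cell to cell and 83.5% of the values above 0 were whole, so that the values were handled as estimated counts and not as TPM. The submitters' processing notes name mm10, TopHat, Bowtie and RSEM 1.2.8. Cells had been kept by the authors if 1000 to 8000 genes and 20 or more housekeeping genes were detected. They assigned cell types and malignancy from clusters and inferred copy number. Doublets had been gated out by forward scatter at the sort, and no doublet caller was run here. The cell type label and the treatment were taken from GEO's labels, and the 652 columns of plates sorted by CD31 or CD3 were not used. No 2 malignant columns were identical.

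Each cell was scaled to a total of 100000, which gave TP100K. Scores, within-plate Pearson correlations and log2 ratios (pseudocount of 1 TP100K, genes above 0 in at least 25% of cells of either group) were computed in Python 3.11.15 with NumPy 2.4.6, pandas 2.3.3 and SciPy 1.17.1, and figures with matplotlib 3.10.9. Correlations used the 3 plates with at least 40 malignant cells. Intervals are 95% Clopper-Pearson intervals over cells, which cover counting error only. The scores were tested on simulated data. No test compares treatments, since each had 1 plate with no animal named. Named genes were the 6 markers, the 5 most variable members of each list, a fixed set of state genes, the genes closest to each score, the 5 highest and 5 lowest ratios and the 15 most variable genes, with further members of the lists past 2-fold named after their values were seen. Some genes that this rule names are not reported here. The members, lists and rules were chosen with earlier results of these data known. Alternatives changed the scaling, thinned cells to 100000 counts, and changed the pseudocount, filter, score, correlation and reference cells. Those restricted to cells with at least 3 of the 6 markers or at least 4000 genes were chosen after seeing the data.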

Additional observations from a re-analysis of the deposited data

Results flagged for a closer look

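In the 8 cells labelled malignant on the anti-PD1 plate, the highest cell stood far above the others for 3 of the 17 scores. The gap between the highest and the next cell was large against the range of all 8. It was 0.61, 0.72 and 0.55 of that range for the neural progenitor, astrocyte and oxidative phosphorylation scores. The cells carried genes of several cell types, so that no chance rate can be given for such a gap. The highest neural progenitor score was 2.13, beside 0.713 for the next cell. The highest astrocyte score was 2.87, beside 0.798. The highest oxidative phosphorylation score was 1.95, beside 0.839. These scores describe a plate on which 7 of the 8 cells held at most 1 of the malignant markers.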

How the results depend on the processing

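Of 299 values recomputed under the alternatives, 247 stayed within the limit set for their kind, 51 moved and 1 correlation reversed. All 96 alternative score differences from control, counted among the 247, moved by less than the SD over control cells. Most main differences were themselves smaller than that SD, such as OPC with losartan+anti-PD1 at -0.256 beside 0.474. This limit therefore cannot show that such a difference held. Of the 96, 2 near 0 changed sign (mesenchymal with losartan, from -0.029 to 0.0081 with cells of at least 3 markers and to 0.0073 with plain means). With Mki67 and Top2a both above 0 as the criterion, the cycling share was 30.6% in control, 17% with losartan, 0% on the anti-PD1 plate and 11.4% with losartan+anti-PD1, and the anti-PD1 share was also 0% with plain means and with cells of at least 3 markers, of which that plate had 1. At r of at least 0.5 the genes following a score numbered 22 for G1/S, 19 for G2/M, 7 for interferon, 0 for OPC and 0 for MHC class II. With partial r they were 6 for mesenchymal and 1 for MHC class II, and with cells of at least 3 markers 1 for OPC and 1 for MHC class II.

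Counts past 2-fold depended most on the pseudocount. With 0.1 TP100K they were 558 higher and 211 lower with losartan and 445 and 508 with losartan+anti-PD1. With 10 TP100K they were 7 and 0, 15 and 0, and for the anti-PD1 plate 294 and 424. With 75th-percentile scaling 50, 81 and 841 genes were higher with losartan, losartan+anti-PD1 and on the anti-PD1 plate. With detection in 50% of cells required, losartan gave 67 and 18, losartan+anti-PD1 79 and 47, and the anti-PD1 plate 763 higher. Without a filter losartan gave 215 and 56, and losartan+anti-PD1 166 lower. As differences of mean ln values losartan gave 10 and 2, losartan+anti-PD1 36 and 27, and the anti-PD1 plate 455 higher. Losartan gave 11 lower with cells of at least 3 markers and 14 with cells of at least 4000 genes.

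With plain means in place of scores, the mean r over plates was 0.018 for G2/M with hypoxia (-0.30 with scores), 0.50 for MHC class I with class II, -0.31 for OPC with mesenchymal and 0.68 for interferon with MHC class I. The cause was not tested. Spearman's rho for G1/S with G2/M was 0.74. Leaving out each plate in turn gave 0.36 to 0.61 for hypoxia with glycolysis, and 0.61 without the control plate. Chromosome 16 was at -0.36, -0.41 and -0.48 against the CD45-positive types. Depth limits low genes such as Ciita and Vegfa, and 13 cells had under 100000 counts. No paired analysis was possible because the plates share no animal or replicate number.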

Other observations

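Among genes of the amino acid stress response, the means of Trib3 and Atf4 were lowest with losartan+anti-PD1. Trib3, a pseudokinase of that response, averaged 35.7 ± 32 TP100K in control, 30.5 ± 30.3 with losartan and 16.7 ± 21.3 with losartan+anti-PD1 (SD over 49, 47 and 44 cells), a log2 ratio of -1.05 in the last, and was detected in 42, 42 and 29 cells. Atf4, its transcription factor, averaged 86.8 ± 56, 77.5 ± 58.8 and 43.7 ± 35.3 TP100K, a log2 ratio of -0.98. Asns, the asparagine synthetase, averaged 39.5, 38.9 and 34.2 TP100K. Over the 20 genes of the list the median ratio was 0.02, or -0.13 with cells scaled by their 75th percentile, and 1 gene was past 2-fold lower.

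Immediate early genes had medians of 0.40 with losartan (3 of 18 past 2-fold higher) and 0.59 with losartan+anti-PD1 (4 of 17), none lower, beside 1.21% and 1.3% of all genes. Both counts became 2 without the highest cell of each plate. Fos averaged 38.1 ± 44.5, 62.2 ± 87 and 58.5 ± 102 TP100K. Cholesterol synthesis genes had a median of -0.48 with losartan+anti-PD1, with 1 of 17 past 2-fold lower, and of 0.19 with losartan, or -0.20 with 75th-percentile scaling.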
